A study of Mus musculus with 18 samples.

Results

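The LIF and STAT3 pathway was followed through 10 of the 53801 genes in the count table, through exit from naive pluripotency in 2 lines of mouse embryonic stem (ES) cells. The genes were listed by their roles in the pathway and matched through Ensembl gene identifiers: the ligand Lif, the receptor chains Lifr and Il6st, the kinases Jak1 and Jak2, the transcription factor Stat3, the feedback inhibitors Socs2 and Socs3, and the target kinases Pim1 and Pim3. They were chosen with earlier results of these data known. All of them were found in the table, and all 10 had enough counts to be tested.

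RNA-seq of polyA RNA was performed on 18 libraries in 6 groups of 3 biological replicates. WT cells were the E14TG2a line, and iEZR_CA cells were E14 ES cells that carry, on a PiggyBac transposon, a doxycycline-inducible, constitutively active form of ezrin followed by an IRES and mCherry. Ezrin is the linker between plasma membrane and actin cortex, and the study asked whether keeping that link active alters early differentiation. Both lines were collected in 2i+LIF on gelatin (ESC, 0 h) and after 24 h (T24) or 48 h (T48) in N2B27 medium. iEZR_CA cells received doxycycline overnight before exit and no doxycycline is stated for WT, which means that effects of ezrin and of the drug cannot be told apart. The sources used here do not say whether the iEZR_CA line is 1 clone. Any other difference between the 2 lines cannot be told apart from effects of ezrin. Since N2B27 lacks both LIF and the 2 inhibitors of 2i (PD0325901, which blocks MEK, and CHIR99021, which blocks GSK3), the loss of LIF and the loss of the inhibitors cannot be told apart either.

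LIF, leukaemia inhibitory factor, is a cytokine of the interleukin-6 family that sustains self-renewal of mouse ES cells. It binds a receptor made of LIFR and the shared chain gp130, the product of Il6st, and the JAK kinases bound to those chains then phosphorylate STAT3, which dimerises, enters the nucleus and activates its target genes. Socs3 is among these targets, and its product binds gp130 and JAK and shuts the signal down, which makes it a negative feedback loop.

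Reads counted on genes ran from 10940752 to 33276622 per library, and with replicates that varied by 2.98% (edgeR's common biological coefficient of variation), small changes passed the test. Levels are given as normalized counts (reads divided by the library's size factor, mean ± SD, n = 3), and a gene is called higher or lower where the Benjamini-Hochberg adjusted p of edgeR's quasi-likelihood test is under 0.05. Ezr, the targeted gene, had 11763 ± 277 normalized counts in WT ESCs and 24819 ± 499 in iEZR_CA ESCs. It was above WT in all 3 iEZR_CA libraries of every stage, as the labels have it, though reads of the transgene and of the cell's own gene cannot be told apart. The iEZR_CA mean of Ezr was 2.11 times the WT mean as ESCs, 2.70 times at T24 and 1.61 times at T48. The summed level of 6 pluripotency genes (Pou5f1, Sox2, Sall4, Utf1, Dppa4 and Lin28a) lay between 31373 and 65894 normalized counts, with none of the 6 at the detection floor of 3 counts. From ESC to T48, 3 of the 6 (Utf1, Dppa4 and Lin28a) were called higher in each line. In WT cells the other 3 were called lower, with Sox2 going from 11512 to 2578. In iEZR_CA cells 2 (Pou5f1 and Sox2) were called lower. All genes tested gave 37.1% higher and 37.4% lower in WT, and 35.2% and 35.0% in iEZR_CA cells. As ESCs the sum was 40969 to 42390 in WT and 31373 to 31856 in iEZR_CA libraries. All 6 were called lower in iEZR_CA than in WT ESCs, against 28.1% of all genes tested, with Lin28a at 258.5 against 1590.5 normalized counts. Among lists of other cells, 10 primitive endoderm genes summed to 8334 to 8507 in WT ESCs and 14683 to 14962 in iEZR_CA ESCs. Of the 10, 4 were called higher in iEZR_CA ESCs and 3 lower (Gata4, Sox7 and Col4a1), against 26.4% and 28.1% of all genes tested. Those higher were Dab2 (631 against 45.2 normalized counts), Lama1 (3606 against 1764), Gata6 (61.5 against 32.4) and Sparc (10182 against 6162). Sparc and Lama1 weighed most in the sum. A list of 6 trophoblast genes summed to 169.6 to 235.0 in WT and 303.0 to 510.8 in iEZR_CA libraries, where Gata3 was higher at every stage (138 against 28.1 as ESCs). Eomes was lower in iEZR_CA ESCs and higher at T48, while Krt7 was higher as ESCs and at T24 and lower at T48. Cdx2 was lower at T48, and Hand1 was called higher as ESCs, where it was at the floor in both lines. A list of 8 fibroblast genes summed to 34.9 to 77.2 before T48. At T48 it summed to 576.5 to 639 in WT and 359 to 439 in iEZR_CA cells. Postn and Twist2 were at the floor in every group. Of the 4 tested, 1 (Dcn, 331.5 against 226.6) was called higher at T48 in iEZR_CA than in WT cells. The other 3 (Col1a1, Col1a2 and Thy1) were called lower, against 31.0% higher and 30.1% lower of all genes. From ESC to T48, all 4 were called higher in WT cells but only Dcn and Col1a2 in iEZR_CA cells. All genes tested gave 37.1% and 35.2% higher. The part of these marker lists in the results was not tested.

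Promoter sequence was examined because Socs3 and Stat3 showed the largest falls among the 10 genes in WT cells at T48. RefSeq promoters of GRCm38.p6, 250 bases before to 50 after an annotated start, were matched for 9 of the 10 genes (Socs2 had none in the table), in 11 windows. The windows were searched for TTCNNNGAA, the palindromic motif bound by STAT dimers, which reads the same on both strands so that 1 search covers both, and the motif is given in capitals:
Socs3, at chr11:117969317-117969616, minus strand: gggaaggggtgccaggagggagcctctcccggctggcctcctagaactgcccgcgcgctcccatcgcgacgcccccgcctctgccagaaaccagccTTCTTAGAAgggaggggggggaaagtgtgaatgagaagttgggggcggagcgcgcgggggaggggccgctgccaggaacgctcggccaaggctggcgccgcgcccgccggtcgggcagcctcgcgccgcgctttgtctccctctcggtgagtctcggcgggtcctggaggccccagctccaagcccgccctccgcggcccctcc
Stat3, at chr11:100939491-100939790, minus strand: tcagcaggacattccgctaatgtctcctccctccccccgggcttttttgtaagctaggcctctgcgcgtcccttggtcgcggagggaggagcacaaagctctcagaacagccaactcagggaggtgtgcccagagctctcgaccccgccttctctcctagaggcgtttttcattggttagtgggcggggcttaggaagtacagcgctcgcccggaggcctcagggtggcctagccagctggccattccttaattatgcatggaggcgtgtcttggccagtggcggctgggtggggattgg

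The motif was found in 1 of the 11 windows, that of Socs3, as TTCTTAGAA at chr11:117969512-117969520, with its first base 154 bases before the start. It was present in 8.3% of 32851 RefSeq promoter windows of this length, and the other 8 genes matched, Stat3 and Lif included, had no match in theirs. The start used by this table lies 180 bases upstream of the start of the longest GENCODE M21 transcript of Socs3, so the stretch closest to that start is outside the window. A match describes the letters of the window and is no evidence of binding.

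In WT cells Il6st, Stat3, Socs3, both Pim genes, Lif and Jak2 were lower than in ESCs from T24 on, and Lifr and Jak1 were lower at T48. At T24, 7 of the 10 genes were called lower and 2 higher, against 33.6% and 31.8% of 18469 genes tested, and 3 of them (Il6st, Stat3 and Socs3) were lower by more than 2-fold, against 10.4% of genes. At T48, 9 of 10 (all but Socs2) were called lower and 0 higher, against 37.4% and 37.1% of genes, and 7 were lower by more than 2-fold, against 15.6%. The median log2 fold change of the 10 genes was -0.58 at T24 and -1.38 at T48, where the median over all genes tested was -0.0053 and 0.0058. From T24 to T48, 8 of 10 were called lower and 2 higher, with 32.9% and 32.8% of all genes. RNA per cell and the number of cells that express a gene cannot be told apart in these bulk libraries.

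In iEZR_CA cells Il6st, Stat3, Socs3 and both Pim genes were also lower at both times, while Jak1, Jak2 and Socs2 were higher at both. At T24, 5 of 10 were called lower and 5 higher, against 28.9% and 27.1% of genes, and 2 (Stat3 and Socs3) were lower by more than 2-fold, against 6.63%, with Pim1 just outside that limit at a log2 fold change of -0.9993. At T48, 7 were called lower and 3 higher, against 35.0% and 35.2% of genes, and 4 (Il6st, Stat3, Socs3 and Pim1) were lower by more than 2-fold, against 12.4%. The median log2 fold change of the 10 genes was -0.22 at T24 and -0.60 at T48. From T24 to T48, 5 were called lower and 2 higher, against 30.0% and 29.6% of genes. T24 and T48 of a line are compared with the same ESC libraries, so their fold changes are not independent.

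These counts are on a scale on which the median gene does not move. With library sizes taken from the spike-in RNAs in place of the genes, the median log2 fold change of all genes against ESC was 0.132 in WT and 0.144 in iEZR_CA cells at T24, and 0.271 and 0.26 at T48. The share of higher genes among those called then rose from 48.6% to 61.6% for WT T24, from 49.8% to 66.3% for WT T48, from 48.4% to 68.9% for iEZR_CA T24 and from 50.1% to 69.4% for iEZR_CA T48. From T24 to T48 in WT cells it rose from 49.9% to 61.8%. No member called in a comparison with ESCs changed its direction on that scale. Calls lost on it were those of Pim1 (-0.16) and Pim3 (-0.21) for WT T24, Jak1 (-0.068) and Jak2 (-0.31) for WT T48, Jak1 (0.27) for iEZR_CA T24, and Lif (-0.24) and Pim3 (-0.16) for iEZR_CA T48. From T24 to T48, the calls of Lif, Jak1 and Jak2 in WT cells and of Pim1 and Pim3 in iEZR_CA cells were lost.

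**Figure D1:**
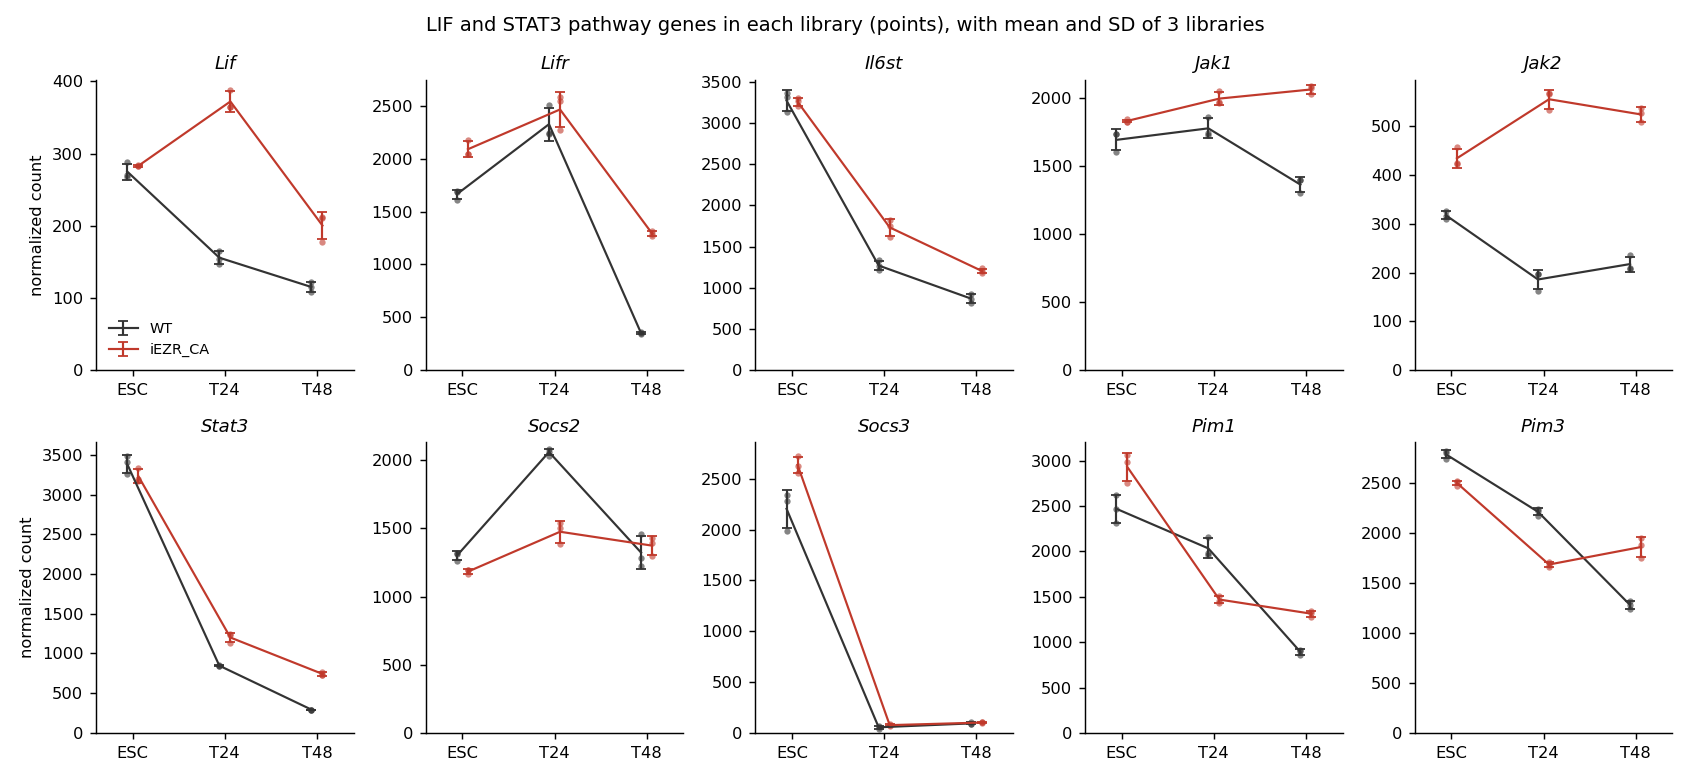
Normalized counts (y axis, from 0) of the 10 genes at ESC, T24 and T48 (x axis) in WT (black) and iEZR_CA (red) cells; points are libraries, and lines join group means with the SD of 3 libraries. Socs3 fell to between 42.6 and 106 normalized counts in the T24 and T48 libraries of both lines, whereas Lif, Lifr, Jak2 and Stat3 ended higher in iEZR_CA than in WT cells.

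Lif, the ligand itself (chr11:4257557-4272514, plus strand), moved in opposite directions in the 2 lines at T24. WT libraries held 269.7, 268 and 288 normalized counts as ESCs, 155, 147 and 166 at T24 and 108, 115 and 123 at T48. iEZR_CA libraries held 282, 282 and 284 as ESCs, 364, 388 and 364 at T24 and 178, 212 and 211 at T48. The ESC libraries of both lines overlapped, whereas all 3 iEZR_CA libraries lay above all 3 WT libraries at both later stages. Relative to ESCs, Lif fell in WT cells by T24 (log2 fold change -0.84 ± 0.088 SE, adjusted p = 2.7e-13) and further by T48 (-1.27), and in iEZR_CA cells it rose at T24 (0.40 ± 0.077, adjusted p = 9e-06) and was below ESCs at T48 (-0.50). The T24 change differed between the lines by 1.24 ± 0.12 log2 units (interaction, adjusted p = 3.2e-14).

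Lifr (chr15:7090614-7197489, plus strand) encodes the chain that gives the receptor its specificity for LIF. In WT cells it read 1613, 1682 and 1695 normalized counts as ESCs, 2244, 2229 and 2503 at T24 and 338, 349.9 and 361 at T48. In iEZR_CA cells the same stages gave 2042, 2047 and 2177, then 2543, 2578 and 2274, then 1285, 1270.3 and 1320.2. Lifr thus rose modestly at T24 in both lines and was low at T48, and at that last stage all 3 iEZR_CA libraries were above all 3 WT libraries. WT T48 cells kept 21% of their ESC level and iEZR_CA T48 cells 61.8%, with log2 fold changes of -2.27 ± 0.055 (adjusted p = 2.1e-41) and -0.69 ± 0.043 (adjusted p = 2.5e-21). The interaction at T48, 1.57 ± 0.071 (adjusted p = 8e-27), was the largest of the 10 genes.

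Il6st (chr13:112464070-112510086, plus strand), which encodes gp130, the chain that all cytokines of the family share, fell earlier than Lifr. Its WT libraries gave 3371, 3316 and 3134 normalized counts as ESCs, 1268, 1212 and 1332 at T24 and 816, 870.0 and 926 at T48, and its iEZR_CA libraries 3205, 3265 and 3305, 1755, 1823 and 1623 and 1179, 1237 and 1199. The ESC libraries of the lines overlapped and the later ones did not, with iEZR_CA above WT. The log2 fold change from ESCs was -1.38 ± 0.040 in WT and -0.91 ± 0.039 in iEZR_CA cells at T24, and -1.93 ± 0.043 and -1.44 ± 0.041 at T48, with the largest adjusted p at 9.9e-30. It differed between the lines by 0.47 at T24 and 0.49 at T48.

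The transcripts of the kinases had smaller log2 fold changes at T48 than those of the receptor chains. Jak1 (chr4:101152367-101265282, minus strand), a kinase of gp130, stayed within a 1.51-fold range over the 6 group means. WT libraries held 1739.8, 1737 and 1606 normalized counts as ESCs, 1731, 1743 and 1863 at T24 and 1299.9, 1398 and 1398 at T48. The iEZR_CA libraries held 1827, 1829 and 1845, then 1972, 2054 and 1968, then 2078, 2029.6 and 2089. At T48 the lines were apart, with Jak1 below its ESC level in WT cells (log2 fold change -0.33 ± 0.039, adjusted p = 2.1e-11) and above it in iEZR_CA cells (0.17 ± 0.038, adjusted p = 5.8e-05). WT Jak1 at T24 (0.053) was not called.

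Jak2 (chr19:29251828-29313080, plus strand), a kinase that acts beside JAK1 at cytokine receptors, separated the lines at every stage. WT libraries held 310.2, 315 and 327 normalized counts as ESCs, 163, 198 and 197 at T24 and 208, 235 and 209.5 at T48, and iEZR_CA libraries held 422, 424 and 456, 533, 565 and 567 and 538, 508 and 526. Every iEZR_CA library of a stage lay above every WT library of it, and the lines moved apart after exit, down in WT (-0.82 ± 0.080 at T24, adjusted p = 3.1e-14) and up in iEZR_CA cells (0.36 ± 0.065, adjusted p = 1.8e-06). At T24 the iEZR_CA mean was 2.99 times the WT mean. The small difference between T24 and T48 in WT cells (0.23, adjusted p = 0.018) was lost without WT_T24 replicate 1 (0.12, adjusted p = 0.31) or WT_T48 replicate 2 (0.19, adjusted p = 0.069).

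Stat3 (chr11:100885098-100939540, minus strand), the transcription factor at the centre of the pathway, fell stepwise in both lines. WT libraries gave 3407, 3485 and 3264 normalized counts as ESCs, 853, 842 and 845 at T24 and 292, 294 and 293 at T48. iEZR_CA libraries gave 3201, 3169.9 and 3333, 1132, 1241 and 1232 and 765, 731 and 731 at the same stages. No 2 stages of a line overlapped, and from T24 on no library of one line overlapped the other. At T48 the level was 8.66% of that of ESCs in WT and 22.9% in iEZR_CA cells (log2 fold changes -3.54 ± 0.047 and -2.12 ± 0.040, adjusted p = 1.8e-61 and 2.8e-52), and the fall was smaller in iEZR_CA cells by 1.42 ± 0.066 log2 units (adjusted p = 6.4e-29). Stat3 and Stat5a lie on opposite strands and share 72 exon bases, and whether the counting used strand is not given in the sources used here. Stat5a itself was low, at 45.4 to 101 normalized counts over the group means.

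Socs3 (chr11:117966079-117970047, minus strand), the feedback inhibitor whose promoter window holds the motif, had the largest fall of the 10 genes. Its WT libraries held 1992, 2281 and 2343 normalized counts as ESCs, 55.4, 67.6 and 42.6 at T24 and 90.4, 105 and 85.1 at T48. In iEZR_CA cells they held 2559, 2627 and 2724, 78.2, 86.6 and 64.7 and 95.3, 106 and 104. Within 24 h the gene was thus at 2.50% of the ESC level in WT and 2.90% in iEZR_CA cells, and the libraries of the 2 lines overlapped at T24 and at T48. The log2 fold changes at T24 were -5.30 ± 0.083 and -5.09 ± 0.077 (adjusted p = 3.1e-44 and 2.1e-44). Between the lines these changes differed by 0.20 ± 0.16 (adjusted p = 0.36), and those at T48 by -0.077 ± 0.14 (adjusted p = 0.7), so Socs3 was the one member for which no difference in response between the lines passed the test at either time.

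After T24, Socs3 rose slightly in both lines, by 0.68 ± 0.15 in WT (adjusted p = 0.00013) and by 0.40 ± 0.14 in iEZR_CA cells (adjusted p = 0.01). The second of these calls was lost without iEZR_CA_T48 replicate 2 (0.36, adjusted p = 0.055) or iEZR_CA_T24 replicate 3 (0.29, adjusted p = 0.095).

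Socs2 (chr10:95385362-95417180, minus strand), an inhibitor best known from growth hormone signalling, did not share this course. It was 1300.4 ± 31.6 normalized counts in WT ESCs, 2061 ± 24.4 at T24 and 1323 ± 122 at T48, and 1184 ± 15.9, 1476 ± 80.9 and 1374 ± 67.2 in iEZR_CA cells. All 3 WT T24 libraries stood above those of the other 5 groups. Socs2 rose at T24 in both lines (0.65 ± 0.042 and 0.31 ± 0.045, adjusted p = 6.1e-22 and 1.8e-08), less so in iEZR_CA cells (interaction -0.34, adjusted p = 6e-06), and at T48 WT cells did not differ detectably from ESCs (-0.013 ± 0.045, adjusted p = 0.8).

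Pim1 (chr17:29490753-29496112, plus strand), a survival kinase induced by STAT factors, fell at different times in the 2 lines. WT libraries read 2626, 2471 and 2316 normalized counts as ESCs, 2159, 1980.5 and 1961 at T24 and 853, 904 and 919 at T48, and iEZR_CA libraries 3058, 2982 and 2755, 1437, 1514 and 1458 and 1279.7, 1341 and 1320.2. The iEZR_CA libraries lay below WT at T24 and above WT at T48, with no overlap at either stage. In iEZR_CA cells nearly all of the fall came in the first 24 h (-0.9993 ± 0.042, then -0.16 ± 0.045), and in WT cells most came in the next 24 h (-0.28 ± 0.041, then -1.20 ± 0.047). The interaction was accordingly -0.72 at T24 and 0.32 at T48 (adjusted p = 8.4e-15 and 2.6e-05). Pim1 shares 488 exon bases with the antisense gene Gm26885 on the other strand, and without strand the reads of the 2 genes cannot be told apart.

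Pim3 (chr15:88862186-88865726, plus strand), its paralog, began lower in iEZR_CA than in WT cells and ended higher. Its level was 2790.3 ± 39.6, 2215 ± 34.9 and 1281 ± 41.6 normalized counts in WT cells and 2503 ± 22.3, 1686 ± 20.6 and 1862 ± 100.4 in iEZR_CA cells. WT libraries were above iEZR_CA libraries as ESCs and at T24 and below them at T48, without overlap. The log2 fold change at T48 was -1.15 ± 0.037 in WT and -0.43 ± 0.035 in iEZR_CA cells (adjusted p = 5.1e-39 and 1.4e-17), a difference of 0.71 (adjusted p = 1.7e-19).

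**Figure D2:**
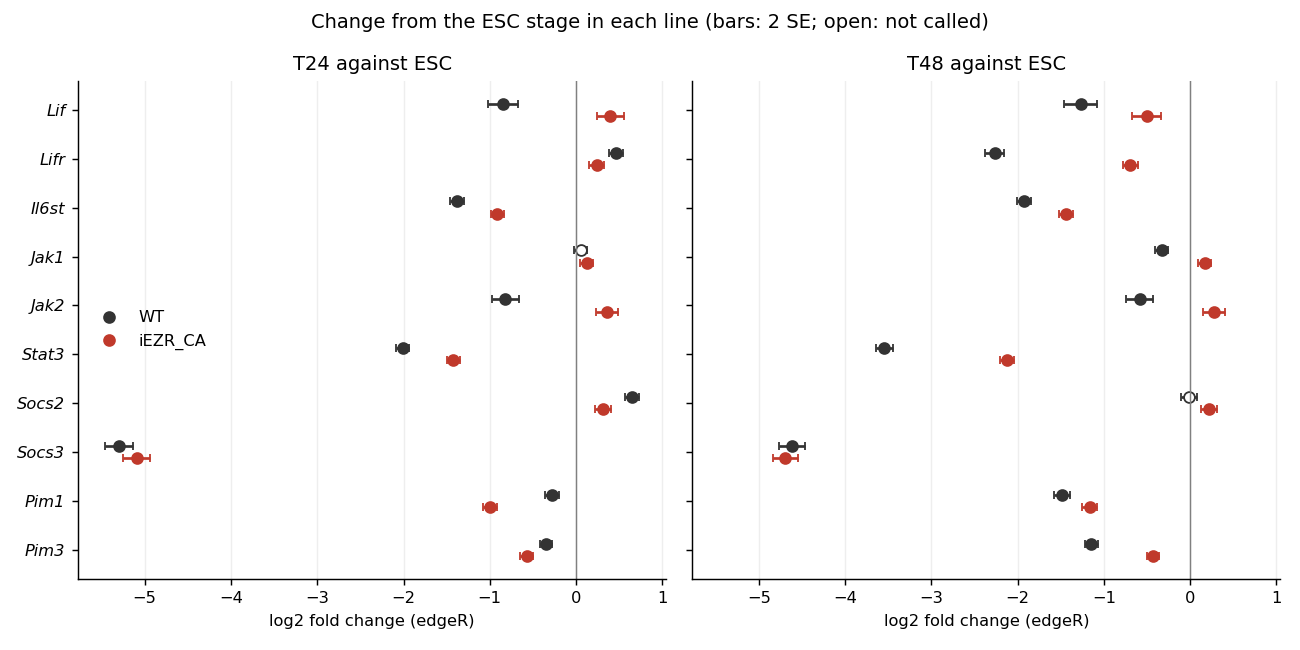
Log2 fold change from ESC (x axis) of the 10 genes at T24 (left) and T48 (right) in WT (black) and iEZR_CA (red) cells; bars extend 2 SE and open circles were not called. At T24 the lines lie on opposite sides of 0 for Lif and Jak2, and at T48 the iEZR_CA value is to the right of the WT value for every gene but Socs3.

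As ESCs the 2 lines differed little in these genes. Of the 10, 5 were called higher and 2 lower in iEZR_CA than in WT ESCs, against 26.4% and 28.1% of all genes, and the largest difference was that of Jak2 (0.44 ± 0.070, adjusted p = 1.7e-07). Lifr (0.32), Pim1 (0.25), Socs3 (0.24) and Jak1 (0.11) were also higher, and Pim3 (-0.16) and Socs2 (-0.15) were lower. The call of Jak1 was lost without a filter on low counts (0.093, adjusted p = 0.13) and without WT_ESC replicate 3 (0.070, adjusted p = 0.14). Stat3 (-0.075, adjusted p = 0.057) became called without that library (-0.10) or without iEZR_CA_ESC replicate 3 (-0.094). With spike-in scaling, 2 of the 10 (Jak2 and Lifr) were called higher and 0 lower.

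At T24, 7 of 10 genes were called higher and 3 lower in iEZR_CA than in WT cells, against 30.8% and 30.1% of all genes. Those higher were led by Jak2 (1.62 ± 0.074), Lif (1.27 ± 0.084), Stat3 (0.51 ± 0.044) and Il6st (0.46 ± 0.043), and those lower were Socs2 (-0.49), Pim1 (-0.47) and Pim3 (-0.39). Il6st, Jak2 and Stat3 transcripts were thus higher in iEZR_CA cells at a stage when the transcripts of both Pim kinases were lower. The call of Lifr (0.093, adjusted p = 0.041) was lost with DESeq2 (0.087, adjusted p = 0.12) and without a filter on low counts (0.10, adjusted p = 0.063). It was lost too with only the groups of the contrast fitted (0.093, adjusted p = 0.17). The call was also lost without WT_T24 replicate 1 (0.074), WT_T24 replicate 2 (0.066), iEZR_CA_T24 replicate 1 (0.075) or iEZR_CA_T24 replicate 2 (0.059). That of Socs3 (0.45, adjusted p = 0.014) was lost without WT_T24 replicate 1 (0.42), WT_T24 replicate 3 (0.35) or iEZR_CA_T24 replicate 2 (0.32). With spike-in scaling the calls of Lifr (0.16) and Jak1 (0.24) were lost. Of all calls at this stage, 50.6% were higher, and 61.1% with spike-in scaling.

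At T48, 8 of 10 genes were higher in iEZR_CA than in WT cells and 0 lower, against 31.0% and 30.1% of all genes. Lifr stood at 3.69 times the WT mean (1.89 ± 0.056, adjusted p = 5.6e-36), Stat3 at 2.53 times (1.35 ± 0.056, adjusted p = 6e-32) and Jak2 at 2.41 times (1.30 ± 0.073, adjusted p = 4.4e-25). Lif, Jak1, Pim1, Pim3 and Il6st were higher by 0.48 to 0.80. Socs3 (0.17 ± 0.13, adjusted p = 0.28) and Socs2 (0.087 ± 0.045, adjusted p = 0.086) were not called, and Socs2 became called without WT_T48 replicate 2 (0.14, adjusted p = 0.007) or iEZR_CA_T48 replicate 3 (0.12, adjusted p = 0.026). The median log2 difference of the 10 genes went from 0.070 as ESCs to 0.31 at T24 and 0.59 at T48, where the median of all genes lay between -0.0092 and 0.0000.

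The change from ESCs itself differed between the lines for most of the genes. At T24 the interaction was positive for 4 genes (Lif, Jak2, Stat3 and Il6st) and negative for 4 (Pim1, Socs2, Pim3 and Lifr), against 21.5% and 16.9% of all genes. At T48 it was positive for 9 and negative for 0, against 25.7% and 20.0%, and Socs3 was the exception. With spike-in scaling the 4 negative values at T24 kept their sign and 1, that of Pim1, stayed called, the calls of Il6st at T24 (0.48) and of Socs2 (0.21) and Pim1 (0.33) at T48 were lost, and the share of positive values among all genes called at T24 rose from 56.0% to 68.5%. The sum of the primitive endoderm list at T24 ran from 8030 to 8191 in iEZR_CA libraries and from 3783 to 3915 in those of WT, of which Sparc alone gave 6393 and 3076. Of its 10 genes, 4 were called higher at T24, 0 lower and 6 not called, against 30.8% higher and 30.1% lower of all genes. At T48 the sum was 3437 to 3649 against 3664 to 3788. There 2 were called higher and 6 lower, against 31.0% and 30.1% of all genes. Its part in the differences between the lines was not tested.

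**Figure D3:**
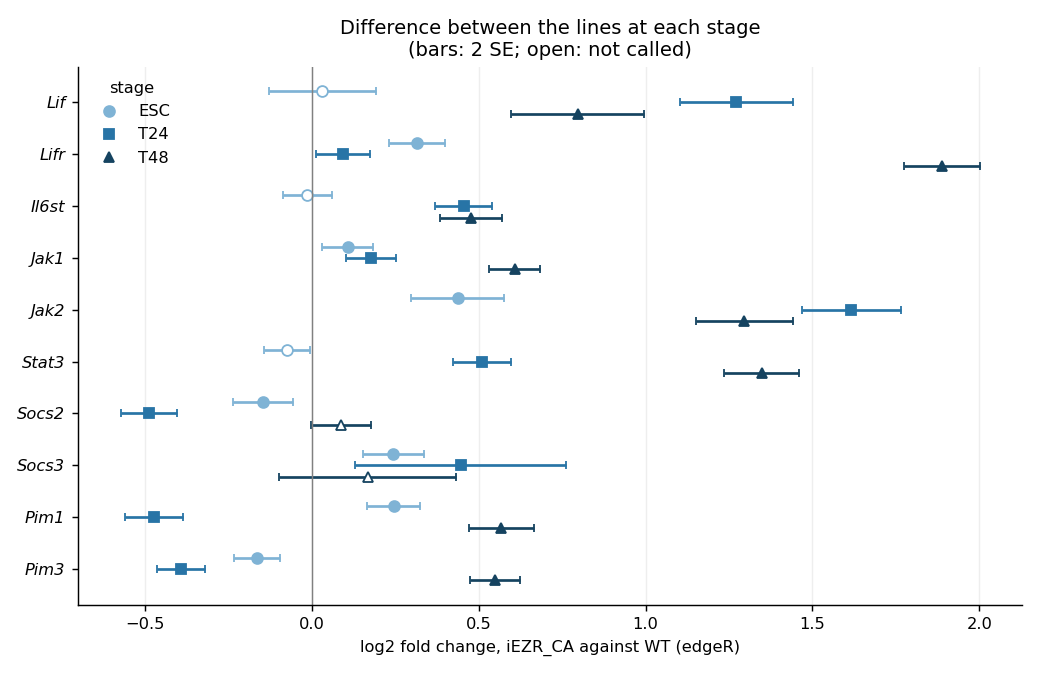
Log2 difference between iEZR_CA and WT cells (x axis) for each of the 10 genes at ESC (light circles), T24 (squares) and T48 (dark triangles); bars extend 2 SE and open symbols were not called. Stat3 and Lifr sit close to 0 in one or both of the earlier stages and beyond 1 at T48, while Pim1, Pim3 and Socs2 lie below 0 at T24.

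The other genes of the pathway were taken from a list of 65 in 7 classes, of which 60 could be tested. In WT cells, 31 of the 60 were lower and 19 higher at T48 than in ESCs, and in iEZR_CA cells 27 were lower and 23 higher. As shares of the 60 these were 51.7% and 31.7% in WT cells, where all genes gave 37.4% and 37.1%, and 45% and 38.3% in iEZR_CA cells, where all genes gave 35.0% and 35.2%. Between the lines at T48, 29 were higher and 20 lower in iEZR_CA cells, 48.3% and 33.3% against 31.0% and 30.1% of all genes. The same shares of all genes apply to the counts of each class. The median log2 fold change of the 60 was -0.27 in WT and -0.15 in iEZR_CA cells at T48, nearer to that of all genes than the median of the 10 genes above.

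Of the ligands and soluble partners, 5 of 9 were tested, with 3 higher and 1 lower in each line at T48. Oncostatin M (Osm), which also signals through gp130, fell from 314 ± 43.5 normalized counts in WT ESCs to 32.8 ± 8.89 at T24, and all 3 WT T48 libraries were at or under the detection floor of 3 counts. It went from 281 ± 25.4 to 34 ± 14.4 and 4.84 ± 2.45 in iEZR_CA cells. Cardiotrophin 1 (Ctf1), another ligand of LIFR, was at 70.8 ± 6.80 in WT ESCs and higher at T48 (109.6 ± 17.6, log2 fold change 0.67 ± 0.14, adjusted p = 1.4e-05). In iEZR_CA cells it was 46.4 ± 5.33 as ESCs and 66.8 ± 9.82 at T48, a call (0.47) that was lost without iEZR_CA_T48 replicate 3 (0.39, adjusted p = 0.052).

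Of the receptor chains, 4 of 5 were tested, and 2 were higher and 2 lower at T48 in each line. Cntfr, the chain for ciliary neurotrophic factor, which joins LIFR and gp130 in one complex, rose from 33 ± 5.40 normalized counts in WT ESCs to 1066 ± 59.2 at T24 and 1191 ± 108 at T48 (5.12 ± 0.096, adjusted p = 8.1e-48). In iEZR_CA cells it was 12.4 ± 3.04, 489 ± 23.4 and 1702 ± 76.2 (7.08 ± 0.11, adjusted p = 3.2e-51), below WT at T24 (-1.11) and above WT at T48 (0.53). Il6ra, the chain for interleukin 6, fell from 483 ± 15.6 to 37.5 ± 5.11 and 8.41 ± 1.96 in WT cells and later in iEZR_CA cells, from 587 ± 14.5 to 278 ± 21.4 and 18.3 ± 1.60, so that at T24 it was higher in iEZR_CA cells by 2.84 ± 0.12 (adjusted p = 7.9e-32).

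Il11ra1 and Il27ra, the chains for interleukins 11 and 27, were counted on few reads. Il11ra1 was 31.7 ± 2.98 normalized counts in WT ESCs and 45.9 ± 7.96 at T48, a call (0.48, adjusted p = 0.029) lost without WT_ESC replicate 2 (0.39), WT_T48 replicate 1 (0.43) or WT_T48 replicate 2 (0.41), and it was higher in iEZR_CA than in WT cells at T48 (0.82 ± 0.17, adjusted p = 2.1e-05). Il27ra had 25.6 ± 2.25 in WT ESCs and 8.49 ± 3.45 at T48 (-1.48, adjusted p = 3.8e-05). Its iEZR_CA change, -0.97, lost its call without iEZR_CA_ESC replicate 3 (-0.84), iEZR_CA_T48 replicate 2 (-0.88) or iEZR_CA_T48 replicate 3 (-0.75).

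On the scale of reads per kilobase of exon scaled to the counted reads of the library (RPKM), which allows genes to be compared, the order of the receptor genes changed. In WT ESCs Il6st stood at 14 ± 0.432, Lifr at 7.33 ± 0.229, Il6ra at 2.66 ± 0.1 and Cntfr at 0.563 ± 0.095 RPKM. At T48 in WT cells Cntfr stood at 20.6 ± 1.91, Il6st at 3.77 ± 0.25 and Lifr at 1.56 ± 0.0554, so that Cntfr, the lowest of the 4 in ESCs, was the highest. At T48 in iEZR_CA cells the levels were 29.7 ± 1.41 for Cntfr, 5.82 ± 0.13 for Lifr and 5.27 ± 0.133 for Il6st. Lifr was thus above Il6st, the reverse of their order in WT cells at T48. At T24 Lifr was above Il6st in both lines, at 10.07 against 5.345 in WT and 11.18 against 7.636 in iEZR_CA cells. The lengths are those of all annotated exon bases of a gene, so a shift between transcripts of one gene is not seen on this scale.

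**Figure D4:**
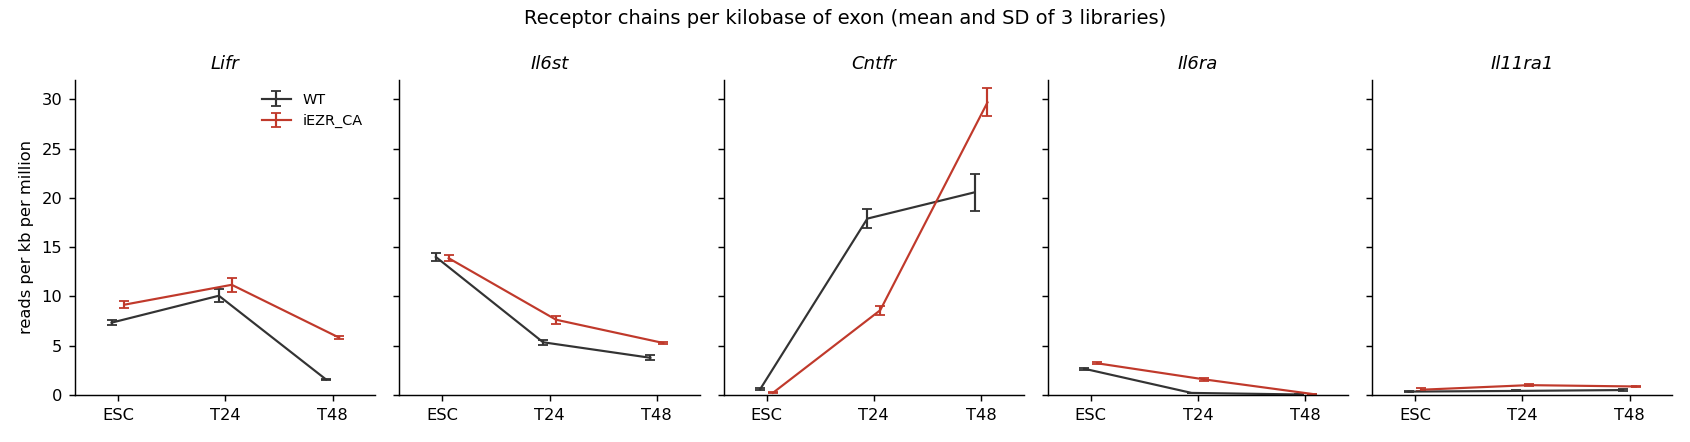
RPKM (y axis, shared) of 5 receptor genes at ESC, T24 and T48 in WT (black) and iEZR_CA (red) cells, as mean and SD of 3 libraries. Cntfr goes from under 1 to above 20 in both lines while Il6st falls in both and Lifr falls mainly in WT cells.

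All 8 other JAK and STAT genes were tested, and at T48 7 were lower and 0 higher in WT cells and 4 lower and 3 higher in iEZR_CA cells. Jak3, a kinase known from lymphocyte receptors, was at 2742 ± 89.5 normalized counts in WT ESCs and 139 ± 6.37 at T48 (-4.32 ± 0.056), and at 3969.9 ± 36.5 and 205 ± 10.9 in iEZR_CA cells (-4.26 ± 0.049, adjusted p = 7.2e-65). Stat5b, which is known to act downstream of growth hormone, fell in WT cells (-1.77 ± 0.100, adjusted p = 1.7e-25) and rose in iEZR_CA cells (0.29 ± 0.090, adjusted p = 0.004), and like Stat3 it was higher in iEZR_CA than in WT cells at T48 (1.41 ± 0.10, adjusted p = 3.4e-19). From 284 ± 17.5 normalized counts in WT ESCs it went to 83.1 ± 4.29 at T48, and its iEZR_CA levels were 180.5 ± 11 and 222 ± 1.72.

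The adaptors couple gp130 to other pathways. Of 7 tested, 3 were higher and 3 lower at T48 in WT cells and 2 higher and 1 lower in iEZR_CA cells, none by more than 2-fold. Grb2, an adaptor to Ras, had 3267 ± 71.8 normalized counts in WT ESCs and 1817 ± 72.4 at T48 (-0.87 in WT, -0.64 in iEZR_CA cells). Gab1, a docking protein, rose in both lines (0.40 and 0.25). Sos2, an exchange factor for Ras, fell in WT cells (-0.79 ± 0.073) and gave -0.094 ± 0.064 in iEZR_CA cells (adjusted p = 0.19), and was higher in iEZR_CA cells at T48 (0.92 ± 0.072, adjusted p = 4.4e-18).

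Of the 13 other negative regulators, 6 were lower and 4 higher at T48 in WT cells and 6 lower and 5 higher in iEZR_CA cells. Socs1, a close relative of Socs3, fell in WT cells (-0.45 ± 0.12, adjusted p = 0.00076, a call lost with spike-in scaling) and rose in iEZR_CA cells (0.81 ± 0.12, adjusted p = 2.6e-08), with levels from 141 ± 11.2 to 98.8 ± 19.7 and from 94.7 ± 7.40 to 165 ± 5.89 normalized counts. Socs5 was lower in iEZR_CA than in WT cells at T48 (-0.98 ± 0.10, adjusted p = 8.1e-13), with 114 ± 9.66 against 225 ± 18.7. Ptpn6, a phosphatase of cytokine receptors, fell in both lines (-1.64 and -1.29), as did Pias2 (-1.36 and -0.81) and Pias4 (-0.73 and -0.48, the latter call lost with spike-in scaling), which belong to the family of STAT inhibitors.

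The 9 target genes known from ES cells included Klf4, Bcl3 and Tfcp2l1, which, apart from Osm, had the 3 lowest log2 fold changes of the named genes in WT cells. In each line 5 were lower by more than 2-fold at T48, and 4 were higher in WT and 3 in iEZR_CA cells. Tfcp2l1, a factor through which LIF maintains self-renewal, went from 25022 ± 1323 normalized counts to 227 ± 25.1 in WT cells and from 26780.2 ± 718 to 1049.7 ± 35.5 in iEZR_CA cells, and Klf4, a naive factor and direct STAT3 target, from 8016 ± 339 to 51.5 ± 3.95 and from 5738 ± 255 to 304 ± 16.7. At T48 both were higher in iEZR_CA than in WT cells, by 2.24 ± 0.091 (adjusted p = 1.1e-11) and 2.53 ± 0.098 (adjusted p = 2.7e-33). Bcl3, a cofactor of NF-kB, fell in WT (-7.16) and iEZR_CA cells (-6.25). Gbx2 rose in WT cells from 404 ± 45.5 to 2075 ± 173 (2.35 ± 0.064, adjusted p = 1.8e-27) and was 260.5 ± 27.7 and 302 ± 26 in iEZR_CA cells, where the call (0.23) was lost without iEZR_CA_ESC replicate 2 (0.14), iEZR_CA_ESC replicate 3 (0.23), iEZR_CA_T48 replicate 2 (0.15) or WT_ESC replicate 3 (0.23).

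The 14 general STAT3 targets split at T48 into 7 lower and 3 higher in WT cells and 8 lower and 5 higher in iEZR_CA cells. The higher genes were 21.4% and 35.7% of the class, where all genes gave 37.1% and 35.2%, and the lower genes 50% and 57.1%, where all genes gave 37.4% and 35.0%. Pim2, the third Pim kinase, rose where Pim1 and Pim3 fell, from 365 ± 17.7 normalized counts in WT ESCs to 4498 ± 131 at T24 and 24288 ± 449 at T48 (6.04 ± 0.036, adjusted p = 3.8e-82). In iEZR_CA cells it was 268 ± 2.95, 1944 ± 22.5 and 18560.0 ± 313 (6.11 ± 0.038), and it was lower than in WT cells at T24 (-1.21 ± 0.029) and at T48 (-0.38 ± 0.025). On the same RPKM scale, the WT T48 level was 418 ± 7.03 for Pim2, 25.4 ± 0.687 for Pim3 and 12.8 ± 0.52 for Pim1, and in WT ESCs it was 6.21 ± 0.348, 54.6 ± 1.10 and 34.9 ± 1.99.

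Icam1, an adhesion molecule, fell in WT (-2.97 ± 0.050) and iEZR_CA cells (-2.44 ± 0.053), and Bcl6, a transcriptional repressor, did so from 167 ± 14.9 to 6.69 ± 0.848 normalized counts and from 107 ± 9.88 to 9.78 ± 5.25. Vegfa, the angiogenic growth factor, went from 1143 ± 30.4 to 252 ± 8.77 and back to 987 ± 69.4 in WT cells, and was 748 ± 17.8, 218 ± 17.9 and 125 ± 9.18 in iEZR_CA cells, so that at T48 it was lower in iEZR_CA cells (log2 difference -2.95 ± 0.071, adjusted p = 2.2e-45). Its WT difference between T48 and ESCs (-0.24, adjusted p = 2.1e-05) turned to 0.031 with spike-in scaling. Nfkbiz, a regulator of NF-kB, was at 98.1 ± 13.7 and 79.2 ± 4.01 in WT cells and 172 ± 21.9 and 39.8 ± 7.55 in iEZR_CA cells, and at T48 it too was lower in iEZR_CA cells (-0.97 ± 0.18, adjusted p = 6.1e-06).

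**Figure D5:**
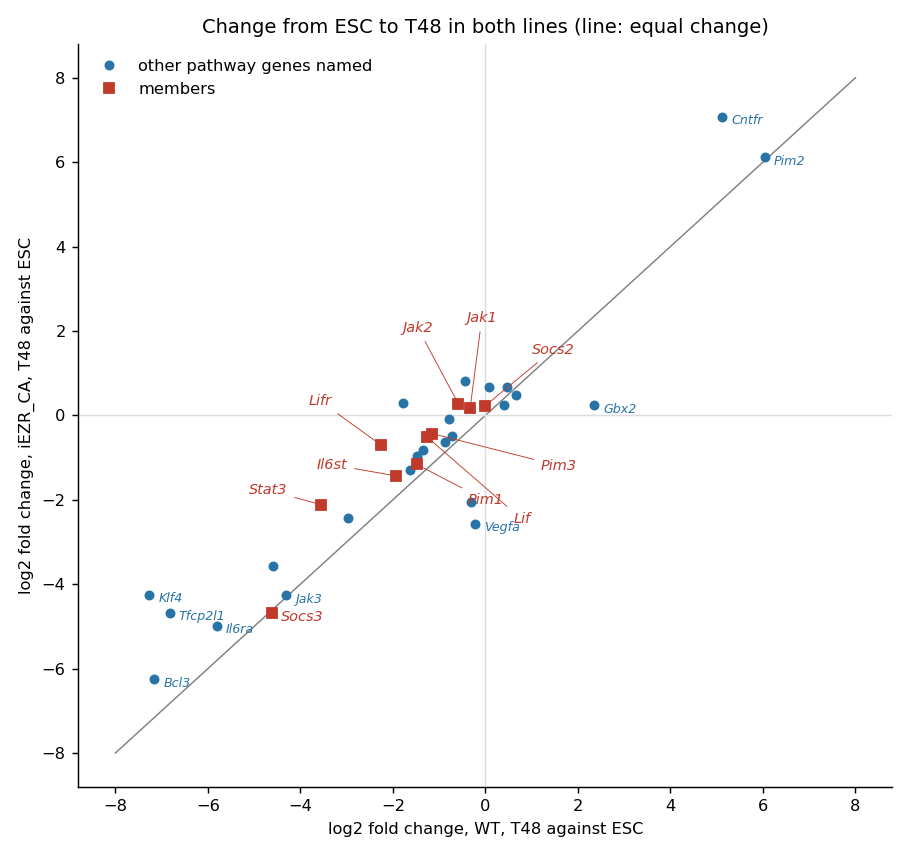
Log2 fold change from ESC to T48 in WT (x axis) and iEZR_CA (y axis) cells for the 10 genes (red squares) and the other named pathway genes (blue circles, without Osm, which is at the floor in WT cells); the grey line marks equal change. Socs3 lies at the line, the other 9 of the 10 genes lie above it, and Cntfr and Pim2 stand at the upper right.

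Genes with the most similar course were sought over the 18 libraries among 11359 protein-coding genes with a mean of at least 50 normalized counts, by Pearson's correlation of log2(normalized count + 1). The libraries share 6 groups, so these values describe group patterns and carry no test. Closest to Lifr were Hsd17b14 (r = 0.989), Zfp827 (0.986) and Lypla1 (0.986). Closest to Socs3 were Yes1 (0.993), a kinase of the Src family that went from 4518 normalized counts in WT ESCs to 581.5 at T24, Atp6ap1 (0.988) and Agk (0.988). For Pim1 they were Vps26a (0.981), Atxn3 (0.979) and Tet2 (0.975), and for Lif they were Scube3 (0.979), Myo6 (0.978) and Urgcp (0.971). Myo6, a myosin, had 780 normalized counts in WT ESCs, 497 at T24 and 311 at T48, and in iEZR_CA cells 846, 1012 and 594.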

How the data were processed

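PolyA RNA of 18 mouse ES cell libraries (2 lines, 3 stages, 3 replicates each) was sequenced. The authors trimmed the reads with Trim Galore 0.6.5, aligned them with GSNAP to mm10 (GRCm38) and deposited raw gene counts made with HTSeq on Ensembl 81, beside 92 spike-in RNAs. Whether strand was used in counting is not given in the sources used here. Library names are plate wells without a replicate number, so replicates were numbered in accession order. All 18 replicate pairs within groups differed by more than counting noise.

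Counts were normalized by TMM in edgeR 4.0.16 (R 4.3.3), filtered with filterByExpr (18469 genes kept) and fitted over all groups by the robust quasi-likelihood test, with adjustment over all genes tested in each of 11 contrasts. Reads outside genes (5 classes, 21.3% to 24.3%) and spike-ins were left out of library sizes. Alternatives were RLE size factors, DESeq2 1.42.0, no filter, at least 10 counts in every library, spike-in scaling, only the contrast's groups, and leaving out each library. For the other pathway genes these were added after seeing the data. Positions come from GENCODE M21 (GRCm38).

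The 10 members and the gene lists were chosen with earlier results of these data known. Of the 7 classes of other pathway genes, those named were the whole class where 4 or fewer were tested, and otherwise the 3 with the largest WT change at T48 and the 2 with the largest difference between lines at T48, at a mean of at least 50 normalized counts. The values of 1 of these genes are not reported here. Depth was 10940752 to 33276622 counted reads, and p-values cover the spread between these libraries.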

Additional observations from a re-analysis of the deposited data

Results flagged for a closer look

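For 9 of the 10 genes the change from ESCs differed between the lines by the interaction test (edgeR's quasi-likelihood test, iEZR_CA change minus WT change, log2 units), and Socs3 was the exception. At T24 the difference was 1.24 for Lif and 1.18 for Jak2, where WT cells fell and iEZR_CA cells rose, and 0.59 for Stat3 and 0.47 for Il6st, where both lines fell and iEZR_CA cells fell less. It was -0.72 for Pim1 and -0.23 for Pim3, where iEZR_CA cells fell more, and -0.34 for Socs2 and -0.22 for Lifr, where they rose less.

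At T48 all 9 differences were positive. They were 1.57 for Lifr, 1.42 for Stat3, 0.77 for Lif, 0.71 for Pim3, 0.49 for Il6st and 0.32 for Pim1, all of which were below their ESC level in both lines, 0.86 for Jak2 and 0.5 for Jak1, which were below it in WT and above it in iEZR_CA cells, and 0.23 for Socs2, which was above it in iEZR_CA cells and not called in WT cells.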

How the results depend on the processing

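Over 110 values of the 10 genes and 24 alternatives each, 2578 of 2640 recomputed values kept their direction and call, 42 lost the call, 9 gained it and 11 changed sign. For 26 other pathway genes in 3 comparisons, 1795 of 1848 kept both. Spike-in scaling changed the most. It lowered the genes called from 10340 to 6593 (iEZR_CA T24 against ESC), 11015 to 6931 (iEZR_CA T48 against T24), 10058 to 5506, 11253 to 7129 and 11282 to 7229 (lines at ESC, T24 and T48) and 7081 to 2416 and 8452 to 3881 (interactions at T24 and T48), and the members called higher from 2 to 1 in each T48 against T24 comparison, from 5 to 2 between ESCs (lower from 2 to 0), and lower from 4 to 1 in the T24 interaction. Without the filter, 1 member was higher from T24 to T48 in WT cells.

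Sign changes were of values not called, save Vegfa. With spike-in scaling they were Socs2 (0.2645) and Vegfa (0.0306) for WT T48, Sos2 (0.1565) for iEZR_CA T48, Jak2 (0.0135) and Socs2 (0.0097) for iEZR_CA T48 against T24 and Il6st (0.0415) between ESCs. For WT T48, Socs2 was 0.004 with RLE, 0.0087 with DESeq2, 0.0304 with the 10-count filter and -0.06 to 0.0368 with 1 library left out. Leaving out 1 library moved Il6st between ESCs from -0.0437 to 0.003, and between lines at T48 Il27ra from -0.8226 to 0.0025 and Bcl6 from -0.0129 to 0.7054, and gave 1 to 2 members higher from T24 to T48 in either line. The causes were not tested. No paired analysis was possible because the labels carry no replicate numbers. At the depth of these libraries, genes near 3 counts, such as Osm at T48, cannot be compared.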
